A study of Mus musculus with 11 samples.

Results

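The immunity-related GTPases of the mouse were followed in BV2 microglial cells exposed to amino-terminal fragments of human apolipoprotein E. The 6 genes were chosen by name as family members, Irgm1, Irgm2, Igtp, Iigp1, Tgtp1 and Tgtp2, and all 6 are among the 36529 genes listed in the count data. BV2 is a transformed microglial line, labelled with the C57BL/6 strain. The ApoE4 group (3 samples) received 25 μg/ml of the fragment of residues 1 to 151 of ApoE4 (nApoE4) for 5 h, and ControlA (3 samples) was its untreated control. The ApoE3 group (2 samples) received the matching fragment of ApoE3 (nApoE3), which differs from nApoE4 at a single amino acid, at the same dose and time, and ControlB (3 samples) was its untreated control. Sample labels name a PBS vehicle while the methods of the study describe conditioned media for untreated cells, so what the controls received is uncertain. Each fragment was run with its own controls in its own experiment, so fragment and experiment cannot be told apart where treated samples are compared. The labels do not say that samples of a group were separate cultures, and the p-values therefore measure the spread between these samples, which may be technical.

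Immunity-related GTPases are interferon-inducible proteins that gather on the vacuoles of intracellular parasites and bacteria. The family has a regulatory arm, the GMS proteins, named after an altered residue in the nucleotide-binding loop, to which Irgm1, Irgm2 and Igtp (also called Irgm3) belong. These sit on cell membranes and keep the effector arm, the GKS proteins, inactive there. Iigp1 (Irga6) and Tgtp1 and Tgtp2 (both Irgb6) are effectors that load onto the vacuole and disrupt it. In macrophages and microglia the genes are classical targets of interferon gamma and also respond to type I interferon.

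Irgm1, Irgm2, Igtp, Tgtp1 and Tgtp2 lie on chromosome 11 of GRCm38.p6 in the RefSeq annotation, and Iigp1 lies on another chromosome. Irgm1 spans chr11:48865245-48871420, Tgtp1 chr11:48985329-48992246 and Tgtp2 chr11:49057196-49064212. Igtp (chr11:58199556-58207592) and Irgm2 (chr11:58214977-58222783) are neighbours. Promoter sequence was in the RefSeq table for these 5 genes. The promoters of family loci on the chromosome of Iigp1 were not described one by one. The last 100 bases before each start site are shown, because they hold the letters of binding motifs for interferon-activated factors. Capitals mark every match to the interferon-stimulated response element (ISRE, searched as GAAA and a second GAAA after 2 bases of any kind) and to the gamma-activated site (GAS, TTCNNNGAA), on both strands, and the sequences read 5′ to 3′ toward the start.
Irgm1, chr11:48871421-48871520, minus strand: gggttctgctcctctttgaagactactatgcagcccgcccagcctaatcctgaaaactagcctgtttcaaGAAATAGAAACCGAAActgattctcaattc
Irgm2, chr11:58214877-58214976, plus strand: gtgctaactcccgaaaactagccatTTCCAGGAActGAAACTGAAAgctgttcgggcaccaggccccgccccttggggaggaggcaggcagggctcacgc
Igtp, chr11:58199456-58199555, plus strand: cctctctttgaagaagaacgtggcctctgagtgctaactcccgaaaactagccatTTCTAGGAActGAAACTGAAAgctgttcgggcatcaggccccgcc
Tgtp1, chr11:48992247-48992346, minus strand: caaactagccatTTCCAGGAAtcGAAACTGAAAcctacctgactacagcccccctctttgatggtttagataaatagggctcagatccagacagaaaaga
Tgtp2, chr11:49064213-49064312, minus strand: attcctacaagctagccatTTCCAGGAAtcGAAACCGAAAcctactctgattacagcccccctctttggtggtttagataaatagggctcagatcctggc

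All 5 promoters held an ISRE in the window of 250 bases before to 50 bases after the start, against 3.44% of 32851 RefSeq promoters. A GAS was present in 4 of the 5, against 8.30% of all promoters. The motifs were not found at every locus of the family. Of 6 further loci whose promoters were searched, 3 held an ISRE and 2 a GAS, and Gm5431, 9930111J21Rik2 and Irgq held neither. Irgm1 had 2 overlapping ISRE matches, the nearer ending 14 bases before the start, and no GAS match. In Irgm2, Igtp, Tgtp1 and Tgtp2 the GAS began 11 bases ahead of the ISRE, and this joined motif, a GAS and then an ISRE after 2 bases of any kind, was found in 5 of the 32851 promoters. The other gene among those 5 was Gm12185, a further locus of the family. The joined motif was defined after the promoters of the members had been read, so its rarity is a description of these sequences. The ISRE ended 54 bases before the start in Irgm2, 24 in Igtp, 67 in Tgtp1 and 60 in Tgtp2. Along the 300-base windows, Irgm2 and Igtp were identical at 72.8% of aligned positions with a run of 61 identical bases, and Tgtp1 and Tgtp2 at 66.8% with a run of 27. A match of letters does not show that a factor bound there.

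The libraries held 39732710 to 44162511 counts on genes in the nApoE4 experiment and 55809688 to 69768666 in the nApoE3 experiment. Levels are given as CPM (counts scaled to TMM-normalized library size), and 3 counts, the floor used here, corresponded on that scale to 0.0425 to 0.0756 CPM, with a mean of 0.0672 in ControlA. This floor covers counting error only. Correlations between replicates across genes were 0.992 to 0.996 on log CPM. Of 11 microglia and macrophage markers, 8 exceeded 1 CPM in every sample of ControlA and ApoE4 and 7 in every sample of ControlB and ApoE3. Their summed level was 3061 to 3346 CPM in ControlA, 2897 to 2960 in ApoE4, 2186 to 2280 in ControlB and 2381 to 2387 in ApoE3. Trem2 was under 1 CPM in every sample of ControlB and ApoE3. Of 9 markers tested between the controls, 6 were lower in ControlB and 1 higher (edgeR adjusted p under 0.05). Of all genes tested there, 34.9% were lower and 34.4% higher. Aif1, Cx3cr1 and P2ry12 were under 1 CPM in every sample, and P2ry12 had no counts. Fewer cells of a type and less RNA per cell cannot be told apart in bulk samples.

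The regulatory genes rose with both fragments. Irgm1, which also takes part in autophagy and mitochondrial upkeep, had 212, 303 and 182 counts in ControlA and 865, 767 and 792 in the ApoE4 samples. It had 269, 247 and 267 counts in ControlB and 2396 and 2689 in the ApoE3 samples. Every treated sample lay above every control. With nApoE4 the level went from 5.21 ± 1.44 to 19.5 ± 0.934 CPM (SD, n = 3 per group), and the log2 fold change was 1.91 (standard error 0.16, edgeR adjusted p = 6.26e-06). With nApoE3 it went from 4.18 ± 0.491 (SD, n = 3) to 44.4 ± 4.56 CPM (SD, n = 2), a log2 fold change of 3.41 (standard error 0.081, edgeR adjusted p = 2.71e-12).

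Irgm2, a regulator found at the Golgi, had 43, 47 and 44 counts in ControlA and 279, 231 and 200 in the ApoE4 samples. In the other experiment it had 61, 59 and 67 counts in ControlB and 701 and 716 in the ApoE3 samples. The groups did not overlap in either experiment. Its level was 1.00 ± 0.0533 CPM in ControlA and 5.70 ± 0.744 CPM with nApoE4 (SD, n = 3 per group), and the log2 fold change was 2.51 (standard error 0.15, edgeR adjusted p = 4.79e-07). It was 1.00 ± 0.168 CPM in ControlB (SD, n = 3) and 12.4 ± 0.448 CPM with nApoE3 (SD, n = 2), a log2 fold change of 3.63 (standard error 0.12, edgeR adjusted p = 3.94e-11). Control levels of the experiments were nearly equal for this gene, while the treated levels were not.

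Igtp, the regulator of the endoplasmic reticulum and lipid droplets, had 21, 13 and 20 counts in ControlA. The ApoE4 samples had 54, 65 and 64 counts, the ControlB samples 43, 35 and 43, and the ApoE3 samples 375 and 326. Again each treated sample exceeded each of its controls. The level rose from 0.404 ± 0.104 to 1.48 ± 0.191 CPM with nApoE4 (SD, n = 3 per group), and the log2 fold change was 1.87 (standard error 0.24, edgeR adjusted p = 1.27e-04). With nApoE3 it rose from 0.646 ± 0.104 (SD, n = 3) to 6.11 ± 0.474 CPM (SD, n = 2), a log2 fold change of 3.24 (standard error 0.15, edgeR adjusted p = 1.22e-09).

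The effector Iigp1 had no counts in the 3 ControlA samples and 20, 23 and 20 in the ApoE4 samples. Against the floor of 3 counts per library, a mean of 0.0672 CPM over ControlA, its 0.508 ± 0.0437 CPM (SD, n = 3) was at least 7.56-fold higher than in ControlA (edgeR adjusted p = 5.09e-05). The fitted log2 fold change of 7.46 for this gene depends on the prior count of the fit and sets no bound. In ControlB it had 7, 7 and 10 counts, and in the ApoE3 samples 428 and 385. Its level there rose from 0.130 ± 0.0417 (SD, n = 3) to 7.09 ± 0.380 CPM (SD, n = 2), a log2 fold change of 5.77 (standard error 0.19, edgeR adjusted p = 4.47e-11), or 54.5-fold. No treated sample overlapped with its controls.

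**Figure D1:**
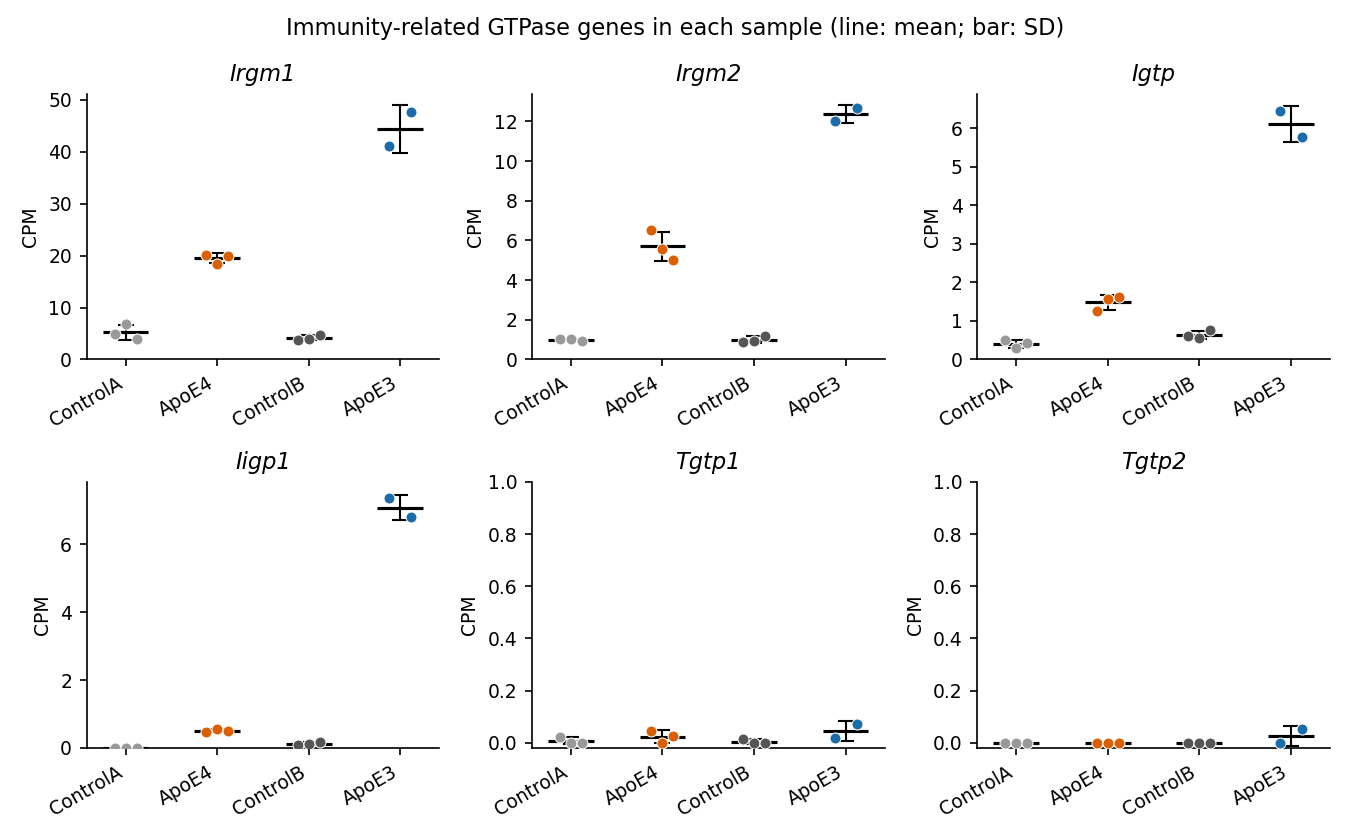
Level of each of the 6 genes in CPM (vertical axes, linear and different in each panel) in the 11 samples by group. Points are samples, lines are group means and bars are the SD. For Irgm1, Irgm2, Igtp and Iigp1 every treated sample lies above its controls, with ApoE3 means of 44.4, 12.4, 6.11 and 7.09 CPM, while Tgtp1 and Tgtp2 stay under 0.1 CPM.

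The effectors Tgtp1 and Tgtp2 were barely counted. Tgtp1 had 1, 0 and 0 counts in ControlA, 2, 0 and 1 in the ApoE4 samples, 1, 0 and 0 in ControlB and 1 and 4 in the ApoE3 samples. Tgtp2 had no counts in any sample but 1 of the ApoE3 samples, which had 3. Neither gene passed edgeR's filter on low counts, so they were not tested, and no fold is given for Tgtp2 in either experiment or for Tgtp1 with nApoE4, where all samples were at or under the floor. For Tgtp1 with nApoE3 the ratio of summed counts was 8.24 with an exact 95% counting interval of 0.922 to 390, which includes no change. When genes with at least 1 count were tested instead, Tgtp1 had an edgeR adjusted p of 0.522 with nApoE4 and 0.207 with nApoE3, and Tgtp2 one of 0.206 with nApoE3.

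A count near 0 has a particular limit for this pair. In the longest GENCODE transcript of each gene matched to RefSeq, 84.8% of the 2749 windows of 75 bases in Tgtp1, the read length of the study, and 85.2% of the 2736 windows in Tgtp2 were identical to the other gene. The transcripts matched at 2804 of 2823 aligned positions (99.3%). Only 12.3% of the windows of Tgtp1 and 14.8% of those of Tgtp2 occurred in no other gene. In Irgm1 and Iigp1 100% of windows occurred in no other gene, and in Irgm2 and Igtp 96.2% and 91.6%. The tally of multiply mapped reads was 11.7 to 13.2% of all tallied reads per sample, and those from the shared part of the Tgtp pair may be among them. Whether Tgtp transcripts were present but not counted was not tested. Low counts here therefore do not show that Irgb6 transcripts were absent.

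**Figure D2:**
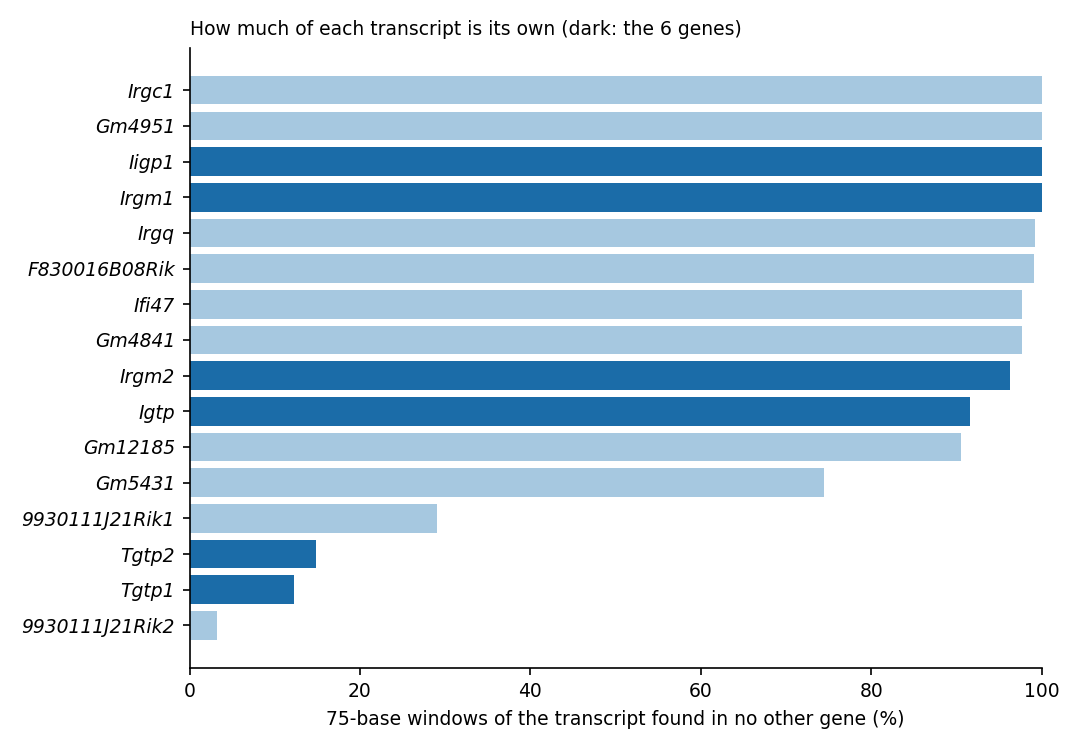
Share of the windows of 75 bases along the longest GENCODE transcript, matched to RefSeq, of each family gene that occur in no other gene (horizontal axis, percent). Dark bars are the 6 genes and light bars are other loci of the family. Tgtp1 (12.3%) and Tgtp2 (14.8%) have little sequence of their own, and the other 4 genes lie between 91.6% and 100%.

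Of the 6 genes, 4 could be tested in each experiment. Iigp1 is left out of the counts that follow, since its controls held few counts or none and its treated samples carried it past the filter. The 3 regulatory genes all passed an adjusted p of 0.05 with nApoE4, where 57.2% of 14240 genes tested did. All 3 were higher, where 28.6% of genes were, and had every treated sample above every control, where 31.5% of genes did. With nApoE3 all 3 also passed, where 67.7% of 14817 genes did, were higher, where 33.1% were, and did not overlap with their controls, where 38.6% of genes did so in that direction. Their median log2 fold change was 1.91 with nApoE4 and 3.41 with nApoE3, against medians of 0.0013 and −0.0026 over all genes tested. With nApoE4, Igtp, Irgm1 and Irgm2 exceeded 95.2%, 95.3% and 97.0% of genes tested in log2 fold change. With nApoE3 Igtp, Irgm1 and Irgm2 exceeded 98.2%, 98.3% and 98.6%.

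**Figure D3:**
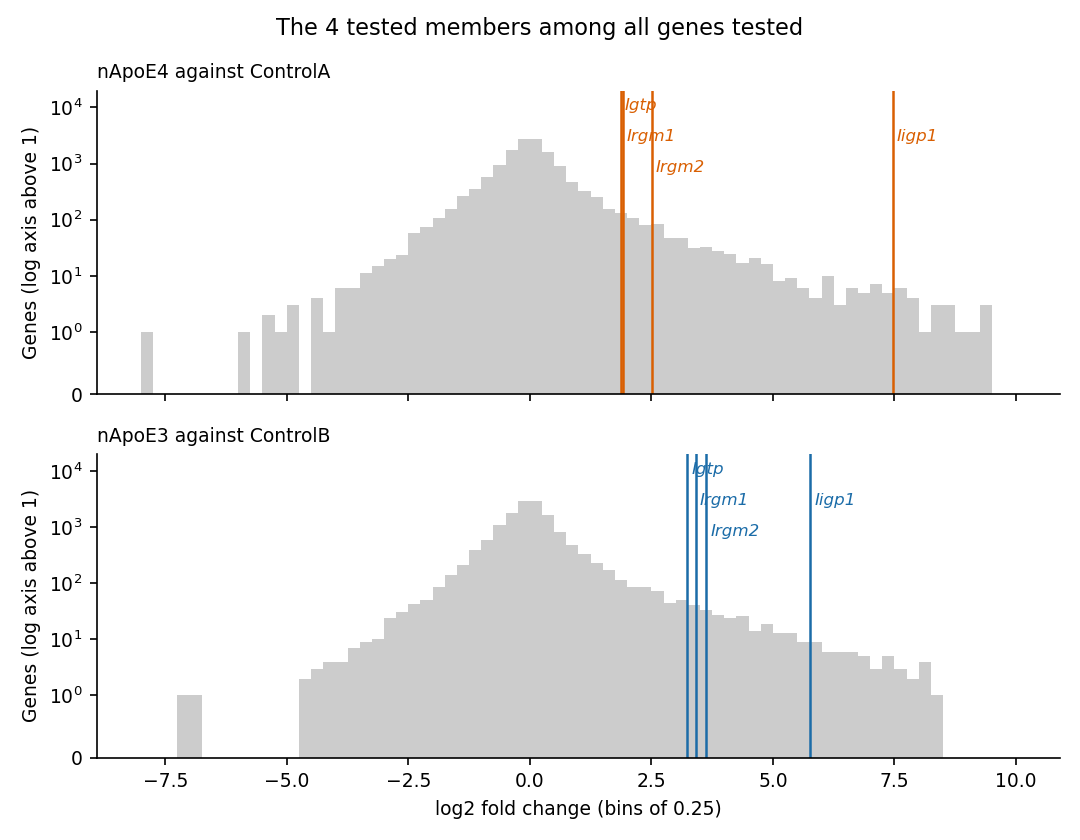
Distribution of the log2 fold change over all genes tested, in bins of 0.25 (horizontal axis), with the number of genes on an axis that is logarithmic above 1, for nApoE4 (upper panel, 14240 genes) and nApoE3 (lower panel, 14817 genes). Vertical lines mark the 4 tested members, which lie in the upper tail in both panels. Iigp1 passed the filter through its treated samples, so its place there was largely fixed. Its nApoE4 position also depends on the prior count, since its controls had no counts.

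The rise of the regulatory genes was larger with nApoE3 than with nApoE4. An interaction term fitted to the 11 samples tested whether the response to a fragment, each against its own controls, was the same for both. For Irgm1 the nApoE4 rise was smaller by a log2 difference of −1.51 (standard error 0.21, edgeR adjusted p = 1.65e-04), a 2.84-fold gap. For Irgm2 the difference was −1.12 (standard error 0.20, edgeR adjusted p = 1.11e-03) and for Igtp −1.38 (standard error 0.29, edgeR adjusted p = 3.26e-03). Thus all 3 regulatory genes passed the threshold in this direction, where 13.9% of 15287 genes did and 28.3% passed in either direction. All 3 also passed it in each alternative fit tried.

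Iigp1 gave an interaction of 1.93 (standard error 0.87, edgeR adjusted p = 0.254), with the opposite sign. ControlA had no counts of this gene, so that value rests on the prior count and its direction cannot be read. The measured levels were 0.508 CPM with nApoE4 and 7.09 CPM with nApoE3, and 0 and 0.130 CPM in their controls.

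The untreated controls of the experiments were compared with each other to see how far the starting levels matched. Irgm1 differed by a log2 fold change of −0.34 in ControlB against ControlA (edgeR adjusted p = 0.154) and Irgm2 by −0.018 (edgeR adjusted p = 0.933). Igtp was higher in ControlB by 0.66 (standard error 0.25, edgeR adjusted p = 0.0469), a call that did not hold with DESeq2 (0.66, adjusted p = 0.0903) or when genes with at least 1 count were tested (0.67, edgeR adjusted p = 0.0630). Without ControlA replicate 2 the Igtp difference was 0.47, and that call also failed without ControlA replicate 3 (0.70) and without ControlB replicate 1, 2 or 3 (0.71, 0.75 and 0.53). Irgm1 passed the threshold without ControlA replicate 3, at −0.51. Of the 3 members tested, 1 passed the threshold, where 69.3% of 14249 genes did, and it was higher in ControlB, where 34.4% were. Igtp did not overlap between the control groups, where 38.2% of genes were higher in every ControlB sample. Iigp1 was not tested here, and its 7 to 10 counts in ControlB did not overlap with the absence of counts in ControlA.

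Between genes, levels are comparable only per length of transcript, and CPM per kilobase of the longest GENCODE transcript matched to RefSeq was used. Irgm1 stood first in every group, at 2.31 in ControlA, 8.64 with nApoE4, 1.85 in ControlB and 19.7 with nApoE3. In ControlA Irgm2 (0.289) and Igtp (0.200) followed, and in ControlB the order of Igtp (0.319) and Irgm2 (0.290) was not resolved, since their samples overlapped. With nApoE4 the order was Irgm2 (1.65), Igtp (0.731) and Iigp1 (0.163), and with nApoE3 it was Irgm2 (3.57), Igtp (3.02) and Iigp1 (2.27), with no overlap between neighbours in these groups. The span from Irgm2 to Iigp1 was narrower with nApoE3 than with nApoE4, a description that was not tested. Tgtp1 and Tgtp2 had group means of 0 to 0.0156 CPM per kilobase and overlapped with each other in every group, and in ControlA they overlapped with Iigp1 as well.

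Other loci of the family did not all move with the 6 genes. The further loci were listed under 14 names, of which Irgc is a synonym of Irgc1, and 10 of the names were in the count data. Of these 10 loci, 8 were tested with nApoE4 (4 higher and 1 lower, where 28.6% of all genes were higher and 28.6% lower). With nApoE3, 7 were tested (5 higher and 0 lower, where 33.1% were higher and 34.6% lower). Their median log2 fold changes were 0.12 and 1.66. Gm12250 and Gm4951 passed the filter only through their treated samples, and Irgc1 with nApoE4 only through ControlA. Their direction in these counts and medians was therefore largely fixed by the filter, and the counts only describe the list. Gm12250 encodes the effector Irgb10, which acts on bacterial membranes. It had 1, 0 and 0 counts in ControlA and 25, 25 and 32 in the ApoE4 samples, a ratio of summed counts of 88.6 with an exact 95% counting interval of 15.5 to 3541. In ControlB it had 4, 1 and 7 counts and in the ApoE3 samples 223 and 229, a log2 fold change of 5.90 (standard error 0.31, edgeR adjusted p = 4.84e-09). Leaving out replicates gave 5.46 to 6.63, the highest without ControlB replicate 3. Gm4951, a relative of Iigp1, had 1, 2 and 0 counts in ControlA and 33, 23 and 40 with nApoE4, a ratio of 34.6 (exact 95% counting interval 11.5 to 171). Its ratio with nApoE3 was 134 (exact 95% counting interval 51.8 to 494), from 1, 1 and 2 counts to 177 and 148. The fitted log2 fold changes with nApoE4, which depend on the prior count, went from 6.01 to 7.84 for Gm12250 without ControlA replicate 1, and from 4.95 to 5.78 and 4.39 for Gm4951 without ControlA replicates 2 and 3. Both loci, like Iigp1, rose from at most 10 counts in each control sample.

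Gm12185 had the largest interaction of the family loci tested. It had 22, 19 and 15 counts in ControlA and 9, 16 and 18 in the ApoE4 samples, which overlap, and a log2 fold change of −0.26 (edgeR adjusted p = 0.540). It had 22, 21 and 17 counts in ControlB and 170 and 144 in the ApoE3 samples, which do not overlap, and a log2 fold change of 3.09 (standard error 0.18, edgeR adjusted p = 1.54e-08). The interaction was −3.36 (standard error 0.39, edgeR adjusted p = 3.47e-05). Its promoter window carries the same joined motif as Irgm2 and Igtp, both of which rose with nApoE4. Of its transcript windows, 9.04% are shared with another locus.

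Gm5431 (Irgb9b8) rose with both fragments, by 0.83 with nApoE4 (edgeR adjusted p = 1.96e-04) and by 1.66 with nApoE3 (edgeR adjusted p = 1.66e-08) on the log2 scale, and the interaction was −0.84 (edgeR adjusted p = 1.58e-03). Another locus shares 25.6% of the transcript windows of Gm5431. 9930111J21Rik1 had a log2 fold change of −0.36 with nApoE4 (edgeR adjusted p = 0.177) and rose by 0.85 with nApoE3 (edgeR adjusted p = 6.95e-04), with an interaction of −1.23 (edgeR adjusted p = 5.67e-03). Its neighbour 9930111J21Rik2 passed in neither, and 96.8% of the windows of 9930111J21Rik2 and 70.3% of those of 9930111J21Rik1 are shared with another locus, so counts of this pair are uncertain. Single libraries changed these calls: without ControlB replicate 3, 9930111J21Rik2 passed with nApoE3 (0.95, edgeR adjusted p = 0.0203), and without ControlA replicate 2, 9930111J21Rik1 passed as lower with nApoE4 (−0.55, edgeR adjusted p = 0.0238). Irgq, a divergent member not known as an interferon target, rose by 0.38 with nApoE4 (edgeR adjusted p = 3.52e-03) and had −0.075 with nApoE3 (edgeR adjusted p = 0.234), and without ApoE3 replicate 1 the latter passed as −0.16 (edgeR adjusted p = 0.0298). Irgc1, a member of the testis, fell with nApoE4 from 17, 11 and 14 counts to 3, 4 and 4 (log2 fold change −1.79, edgeR adjusted p = 3.22e-03) and was not tested with nApoE3, where it had 9, 4 and 6 counts in ControlB and 5 and 5 in the treated samples. It was also lower in ControlB than in ControlA (log2 fold change −1.64, edgeR adjusted p = 3.79e-03), and the ControlB mean of 0.0995 CPM was near the 0.0890 CPM of the ApoE4 samples. F830016B08Rik had 8 and 7 counts with nApoE3 and 0 to 2 in every other sample, and Gm4841 had none.

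**Figure D4:**
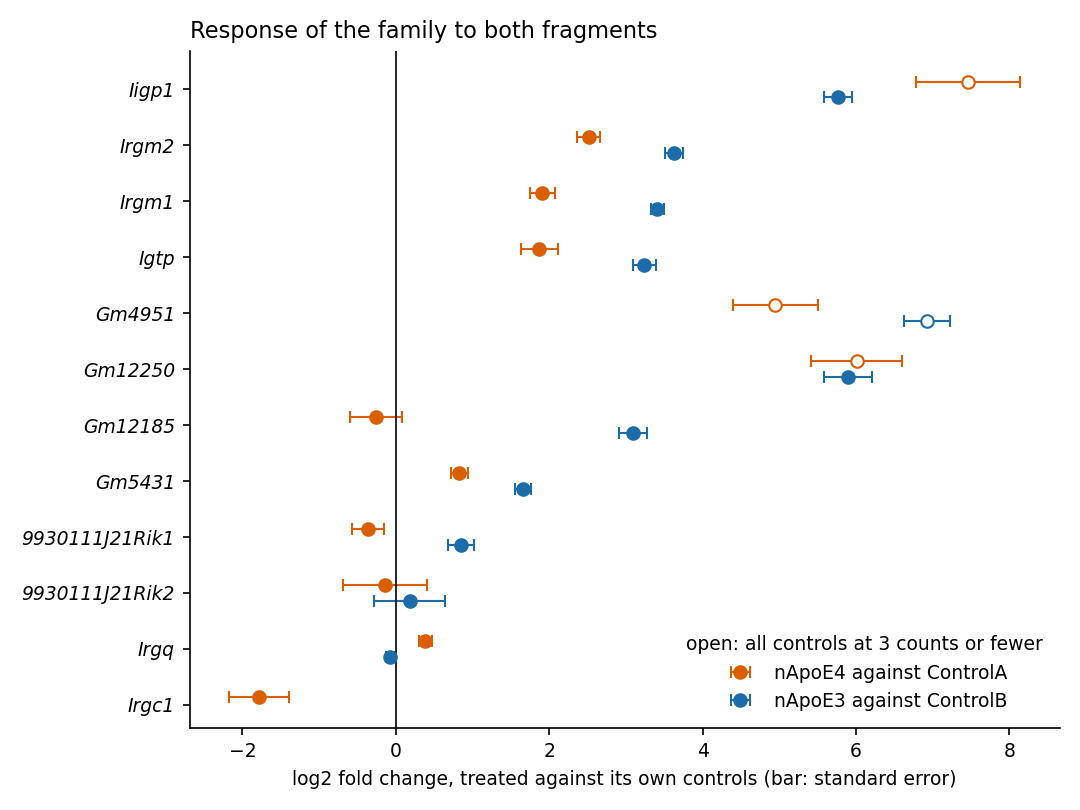
Fitted log2 fold change (horizontal axis) of each tested family gene with nApoE4 (orange) and nApoE3 (blue) against its own controls, with bars of 1 standard error. Open symbols mark genes with 3 counts or fewer in every control, for which the position depends on the prior count. Gm12185 and 9930111J21Rik1 lie above 0 with nApoE3 and below 0, not past the threshold, with nApoE4.

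Beside the Tgtp pair on chromosome 11 lie Ifi47 (Irgd), a GKS protein, and Olfr56, an olfactory receptor gene that overlaps it, both of which were chosen after their values were seen. Ifi47 had 0 to 2 counts in every sample, although 97.7% of its windows occur in no other gene. Olfr56 had 6, 6 and 7 counts in ControlA, 35, 17 and 29 with nApoE4, 5, 3 and 5 in ControlB and 77 and 63 with nApoE3. The treated samples of Olfr56 did not overlap with their controls. Whether reads of Ifi47 were assigned to Olfr56 was not tested.

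Genes that induce the family and genes that work beside it were then described from lists, with the share of all genes called in the same direction as the background, 28.6% higher and 28.6% lower with nApoE4 and 33.1% higher and 34.6% lower with nApoE3. Interferon gamma (Ifng), the strongest known inducer of the family, had no counts in any sample. Interferon beta (Ifnb1) went from 0 to 2 counts per sample in ControlA to 30 to 50 with nApoE4, a ratio of 33.2 (exact 95% counting interval 12.6 to 124). It went from 3 to 9 counts in ControlB to 72 to 75 with nApoE3, a log2 fold change of 3.63 (standard error 0.34, edgeR adjusted p = 1.11e-06). Of 7 interferon receptor chains and kinases, 5 were higher with nApoE4 and none lower (median 0.53), and 6 were higher and 1 lower with nApoE3 (median 0.42). Ifngr2, the signaling chain of the interferon gamma receptor, rose by 0.53 and 0.88 on the log2 scale (edgeR adjusted p = 1.39e-04 and 5.05e-10). Ifnar1, a chain of the type I interferon receptor, rose by 0.30 and 0.18, and the kinase Jak1 had 0.019 with nApoE4, not past the threshold, and rose by 0.20 with nApoE3. Ifngr1, the ligand-binding chain of the interferon gamma receptor, named after its values were seen, had −0.0091 with nApoE4, not past the threshold, and fell by 0.21 with nApoE3.

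The interferon-activated transcription factor Irf1, which binds the ISRE, rose by 3.71 with nApoE4 and by 2.44 with nApoE3 on the log2 scale (edgeR adjusted p = 4.08e-10 and 6.28e-13). Its interaction was 1.26 (standard error 0.091, edgeR adjusted p = 6.52e-07), a larger rise with nApoE4, where 14.4% of genes passed in that direction, opposite to that of Irgm1, Irgm2 and Igtp. Irf8, a factor of the macrophage lineage, fell by 1.44 with nApoE4 and by 0.94 with nApoE3. Of 5 brakes on interferon signaling, 4 and 5 were higher (medians 2.50 and 2.41), among them Socs3, which rose by 2.94 and 2.41, and the phosphatase Ptpn2, which rose by 0.43 with each. The repressor Irf2 had −0.18 with nApoE4, not past the threshold, and rose by 0.30 with nApoE3.

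The guanylate-binding proteins, large GTPases that act on the same vacuoles, rose with both fragments. Of 8 tested, 8 were higher with nApoE4 (median 4.47) and 7 with nApoE3 (median 4.91). Only 5 of these passed the filter when the control groups were compared with each other. The others depended on their treated samples to be tested, so their direction in these counts and medians was largely fixed. Among those 5, Gbp2 rose by 7.74 and 7.37, Gbp3 by 3.88 and 5.17 and Gbp7 by 3.01 and 3.97 on the log2 scale. Loading of the effector GTPases onto the vacuole is known to depend on the conjugation machinery of autophagy, the set of enzymes that attach LC3 and its relatives to membranes. None of 12 conjugation genes was higher and 3 were lower with nApoE4 (median −0.11), and 4 were higher and 4 lower with nApoE3 (median −0.019), so that the share of lower genes was close to the background with each fragment. Map1lc3b, the LC3 gene, fell by 0.61 and by 0.28 on the log2 scale. Gabarapl1 fell by 0.24 with nApoE4 and rose by 0.090 with nApoE3, and Atg3 had 0.084 with nApoE4, not past the threshold, and rose by 0.093 with nApoE3. Among 7 genes of autophagy initiation and cargo binding, 3 were higher and 4 lower with nApoE4, and 2 were higher and 4 lower with nApoE3. The cargo receptor Sqstm1 (p62), which is recruited to damaged vacuoles, rose by 2.20 and 2.15, while the related receptor Nbr1 fell by 0.86 and by 0.50. Becn1 rose by 0.19 with nApoE4 and had 0.065 with nApoE3, not past the threshold.

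**Figure D5:**
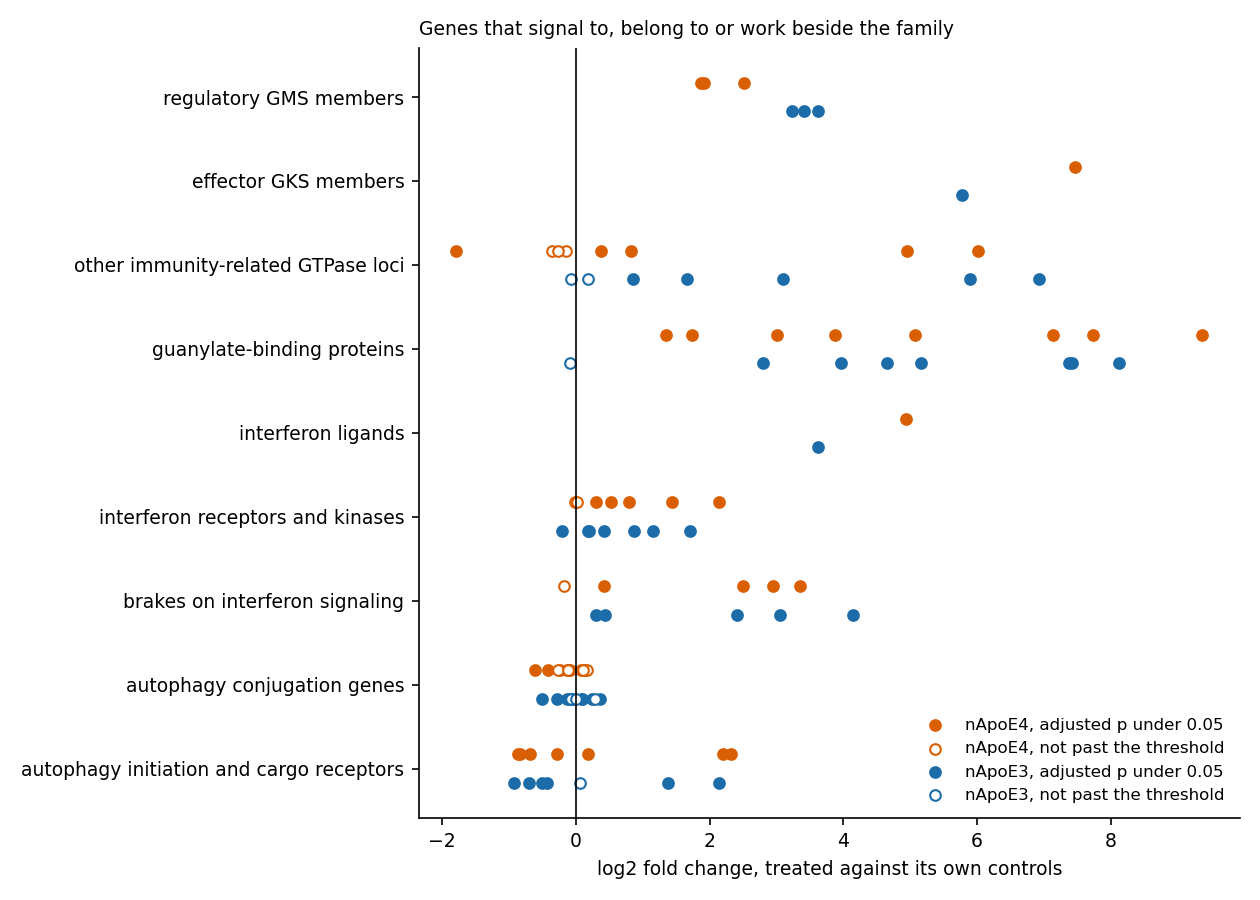
Log2 fold change (horizontal axis) of every tested gene of each list shown with nApoE4 (orange) and nApoE3 (blue). Filled points had an adjusted p under 0.05 and open points did not. The guanylate-binding proteins have medians of 4.47 and 4.91, and the autophagy conjugation genes lie around 0.

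The genes whose profile over the 11 samples lay nearest to each member were sought among the genes tested in both experiments, as the Euclidean distance of log2 CPM centred on the controls of each experiment. Samples of each group share treatment, so closeness describes a like size of response to each fragment on this scale. A prior count of 2 was added, which limits the rise of genes with few control counts, and the distances of Iigp1, with no counts in ControlA, rest on it. Irgm1 lay nearest to Hcar2 (distance 0.592), Phf11d (0.648) and Pilra (0.649). Irgm2 was nearest to Plk2 (0.341), Ifi203 (0.476) and Mmp12 (0.504). The neighbours of Igtp were Gm8995 (0.445), Oas3 (0.595) and Phf11d (0.651), and those of Iigp1 were Irf7 (0.367), Gbp3 (0.650) and Mnda (0.731). Among the members, Irgm1 and Irgm2 were 1.09 apart, Igtp and Irgm1 1.16 and Igtp and Irgm2 1.52. Iigp1 lay 3.52 from Irgm2, 4.38 from Irgm1 and 4.75 from Igtp.

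Markers of other cell types were checked beside these results. The 4 neuron markers and the 4 T and B cell markers were under 1 CPM in every group. Of 4 astrocyte markers, Slc1a2, a glutamate transporter, rose with both fragments (log2 fold change 2.69 with nApoE4 and 2.05 with nApoE3), which took the summed level of the list from 1.05–1.39 CPM in the controls to 4.36–7.02 CPM in treated samples, while Gfap, Aqp4 and Aldh1l1 were under 1 CPM. The oligodendrocyte list summed to 9.33–14.2 CPM in the nApoE4 experiment and 22.2–25.4 CPM in the nApoE3 experiment, with Mog at 0. The endothelial list summed to 49.5–57.8 CPM and 95.8–104 CPM, with Cldn5 at 0 and Cdh5 under 1 CPM in both experiments. Pecam1 was also under 1 CPM in the nApoE4 experiment, so nearly all of the sum there came from Flt1. The part of these genes in the rise of the GTPases was not tested.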

How the data were processed

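RNA of BV2 cells was sequenced as single-end 75 bp reads in 11 samples. Per the submitters' processing notes, the authors used Trim Galore 0.5.0, FastQC 0.11.8, HISAT2 2.1.0 on GRCm38.p6 and HTSeq 0.11.0, and they deposited raw counts per gene symbol without normalization. The annotation release, strand setting and overlap mode are not given in the sources used here. Of all tallied reads, 76.0 to 77.7% per sample fell on genes, and library sizes left out the tally rows.

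The counts of treated samples were set against those of their own controls with the quasi-likelihood test of edgeR 4.0.16 (R 4.3.3), after filterByExpr and TMM scaling. P-values were adjusted by Benjamini-Hochberg over all genes tested, with a threshold of 0.05. The difference between fragments was an interaction over 4 group means. CPM used TMM-scaled library sizes. Standard errors were derived from the F statistic. Groups came from the sample labels. The scripts were tested on simulated data with 200 changed genes per comparison. Of the calls there, 6.53 to 8.74% per comparison were on unchanged genes, more than the threshold of 0.05 aims at. Recovery was 79 to 95% for 2-fold changes, lowest for the interaction, and 98 to 100% for 4-fold changes. Changes were planted only in genes above a minimum expected count, so recovery at low counts was not measured. Far fewer genes were changed than were called in the data, where the share of false calls may differ. Transcript windows and lengths came from GENCODE M21, promoters and positions from RefSeq tables of GRCm38.p6. Genes were named by rule: the 6 members, the other family loci, the 3 tested genes of highest mean CPM in each list plus Ifng, Ifnb1 and Irf1, and the 3 nearest profiles. A further gene of the rule, with its list, is not reported here. The members and lists were chosen with earlier results of these data known. Alternatives were DESeq2 1.42.0, its size factors in edgeR, 2 other count filters, all 11 samples in one fit, a replicate block, and leaving out each replicate.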

Additional observations from a re-analysis of the deposited data

Results flagged for a closer look

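Each gene here responded differently to the fragments, by the interaction test of edgeR over all 11 samples with an adjusted p under 0.05. The values are the log2 rise with nApoE4 minus that with nApoE3. Among the regulatory members, Irgm1 had −1.51, Irgm2 −1.12 and Igtp −1.38. Among the other loci, Gm12185 had −3.36, 9930111J21Rik1 −1.23, Gm5431 −0.84 and Irgq 0.45, the last in the opposite direction. The Irgq difference did not pass with a replicate block (0.43, adjusted p = 0.0536) or without ApoE3 replicate 2 (0.37, adjusted p = 0.0617). The fragments were run in separate experiments, which cannot be told apart from the fragments.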

How the results depend on the processing

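The log2 fold changes of Irgm1, Irgm2, Igtp and Iigp1 with each fragment kept direction and threshold under every alternative that gave a value, as did the interactions of Irgm1, Irgm2 and Igtp. The filter of at least 10 counts in every sample dropped Iigp1 and left 3 members called with each fragment. Leaving out replicates gave Irgm1 1.73 to 2.14, Irgm2 2.41 to 2.60 and Igtp 1.68 to 2.03 with nApoE4, and 3.30 to 3.51, 3.52 to 3.76 and 3.16 to 3.37 with nApoE3. Residuals of same-numbered samples correlated at −0.039, −0.17 and −0.062 (nApoE4 experiment) and −0.0079 and −0.013 (nApoE3 experiment). Those of differently numbered samples correlated at −0.084 to 0.14 and at −0.0052 to 0.013. Residuals were centred within groups of 2 or 3 samples, so these values cannot decide whether samples were paired. With replicate number as a block, 7036 genes were called with nApoE4, 9785 with nApoE3 and 2307 in the interaction (4331 without it), and no call on a tested member changed. Under the block 9930111J21Rik2 reversed to 0.027 with nApoE4, Gm12250 to −0.55 in the interaction, 9930111J21Rik2 passed with nApoE3 (0.95, adjusted p = 0.0295), and the interaction of Irgq was 0.43 (adjusted p = 0.0536). Between the controls, the number of members called was 0 with DESeq2, 2 with all 11 samples in one fit and 0 to 1 on leaving out replicates. There Igtp had 0.66 with DESeq2, 0.67 with genes of at least 1 count and 0.47 to 0.82 on leaving out replicates, Irgm1 −0.51 to −0.10, and Irgm2, reversed in 3 of these fits (0.018, 0.092 and 0.026), −0.15 to 0.092. Leaving out 1 sample also changed the sign for 9930111J21Rik2 (−0.57 to 0.82 with nApoE4, −0.16 to 0.95 with nApoE3, −1.10 to 0.64 in the interaction and −0.54 to 1.19 between controls), Gm12185 with nApoE4 (−0.49 to 0.0050), Irgq with nApoE3 (−0.16 to 0.0031) and Gm12250 in the interaction (−0.56 to 2.21). The interaction of Irgq missed the threshold without ApoE3 replicate 2 (0.37, adjusted p = 0.0617). The causes were not tested. The summed row of Tgtp1 and Tgtp2 did not pass the filter and gave no value.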
